A study of Sus scrofa with 36 samples.

Results

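The 9 genes described here, PCP2, PCP4, CALB1, CA8, ITPR1, SLC1A6, RORA, SKOR2 and FOXP2, are markers of the Purkinje cell and were taken as a list by symbol from the 31907 pig gene identifiers in the count tables, of which 15029 had a symbol. All 9 were matched to 1 identifier each, and all 9 passed the filter on low counts. RNA of cerebellum tissue was sequenced from 36 term-born piglets, 9 in each combination of 2 formula fat sources and 2 birth weights. The VEG groups received vegetable oil and the MILK groups bovine milk fat. NBW piglets had a normal birth weight and IUGR piglets were growth restricted in the womb. All piglets were Danish landrace × Yorkshire × Duroc crosses of both sexes, started their diet at 3 days of age and were fed for 3 weeks. Small size at birth and head shape defined the IUGR piglets, which were not made by an experimental procedure.

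Purkinje cells are the large inhibitory neurons of the cerebellar cortex and its only output. They receive parallel fibre input from granule neurons and climbing fibre input from the inferior olive, and glutamate acting through metabotropic receptors releases calcium from internal stores in their dendrites. These cells are few beside the granule neurons, and their genes for calcium handling are transcribed at a very high level, which makes them visible in RNA of the whole tissue. In such RNA, fewer Purkinje cells and less RNA per cell cannot be told apart.

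Counts are given as CPM, that is counts per 1000000 counts on genes, with library sizes scaled by TMM, a method that trims extreme genes. In 3 libraries the share of read pairs not assigned to a gene stood apart in its group by Dixon's test, at 43.6% in piglet 202 (VEG-NBW), 64.3% in piglet 210 (VEG-IUGR) and 31.5% in piglet 213 (MILK-NBW). The study left out 1 library of each of these groups for low RNA integrity without naming them, and the results below leave out these 3 piglets, with values over all 36 libraries beside them where they differ. In the other 33 libraries this share was 26.7 to 30.5%, the total count on genes 15516541 to 23027502, and the number of genes with a count 18635 to 19682. They came from 9 MILK-IUGR piglets and 8 of each other group, 16 females and 17 males in all. The cerebellar origin was seen in the granule neuron genes CBLN1 (median 1249 CPM) and ZIC1 (median 754.2 CPM), and all 12 listed granule neuron genes were counted.

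All 9 Purkinje cell genes were counted in each of the 33 libraries, and together they took a median of 0.328% of the total count, with a range of 0.247 to 0.505%. The median count per library ran from 67 for SKOR2 to 23131 for ITPR1. Counting error alone would give a coefficient of variation of 12.2% at the median count of SKOR2, 6.97% at that of FOXP2 and 3.61% at that of RORA, and from 0.658 to 1.73% at those of the other 6 genes. CPM is not divided by gene length, so the levels of different genes are not compared here.

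PCP2 and PCP4 encode small proteins of the Purkinje cell: PCP2 binds the alpha subunit of inhibitory G proteins, and PCP4 binds calmodulin. PCP2 (chr2:71471071-71519394, Sscrofa11.1) had a lowest, median and highest level of 330.1, 402.5 and 677.1 CPM in VEG-NBW, 335.3, 415.0 and 664.1 CPM in VEG-IUGR, 398.8, 454.4 and 889.0 CPM in MILK-NBW, and 375.8, 405.5 and 538.4 CPM in MILK-IUGR. The 4 groups overlapped, and the 889.0 CPM of piglet 234 (MILK-NBW) stood well above the next piglet, piglet 200 of VEG-NBW at 677.1 CPM. The RefSeq span of PCP2 overlaps those of 4 protein-coding genes, TRAPPC5, MCEMP1, RETN and STXBP2, and because the strand setting of the counting is not given, reads shared with them cannot be told apart.

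PCP4 (chr13:203412479-203479216) had a lowest, median and highest level of 339.2, 485.9 and 816.9 CPM in VEG-NBW, 362.1, 466.7 and 772.2 CPM in VEG-IUGR, 402.0, 503.9 and 776.3 CPM in MILK-NBW, and 428.7, 472.3 and 632.6 CPM in MILK-IUGR. In each of the first 3 groups a single piglet held the top value, at 816.9 CPM in piglet 200, 772.2 CPM in piglet 201 and 776.3 CPM in piglet 234, and the groups otherwise overlapped through their whole range.

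CALB1, CA8 and ITPR1 belong to calcium handling. CALB1 encodes calbindin, a buffer that binds calcium, ITPR1 encodes the receptor for inositol trisphosphate that releases calcium from the endoplasmic reticulum, and CA8 encodes a carbonic anhydrase-related protein without enzyme activity that binds ITPR1 and lowers its affinity for inositol trisphosphate. CALB1 (chr4:46701276-46723548) had a lowest, median and highest level of 352.0, 518.1 and 778.5 CPM in VEG-NBW, 376.6, 449.2 and 664.5 CPM in VEG-IUGR, 358.2, 456.9 and 785.0 CPM in MILK-NBW, and 397.6, 528.1 and 795.8 CPM in MILK-IUGR. The order of the group medians, with MILK-IUGR and VEG-NBW above the other groups, was smaller than the spread within any group. CA8 (chr4:73047867-73172215) had a lowest, median and highest level of 288.0, 399.9 and 623.7 CPM in VEG-NBW, 289.9, 391.1 and 496.9 CPM in VEG-IUGR, 324.7, 409.4 and 721.3 CPM in MILK-NBW, and 354.9, 425.0 and 592.0 CPM in MILK-IUGR. Its highest value was again that of piglet 234, and its lowest that of piglet 228 (VEG-NBW).

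ITPR1 (chr13:61068131-61398918) had a lowest, median and highest level of 919.5, 1250.0 and 1622 CPM in VEG-NBW, 996.0, 1300.0 and 1404 CPM in VEG-IUGR, 1039, 1194 and 1652 CPM in MILK-NBW, and 1097, 1323 and 1656 CPM in MILK-IUGR. Relative to its mean it varied least of the 9 genes between piglets, with a coefficient of variation of 14.2% over the 33 libraries against 17.4 to 30.4% for the other 8, and its groups overlapped. Its span overlaps that of a long non-coding RNA.

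SLC1A6 encodes EAAT4, the glutamate transporter of Purkinje cell dendritic spines, and its span (chr2:62601763-62623597) also overlaps a long non-coding RNA. Its lowest, median and highest level was 138.0, 185.0 and 275.7 CPM in VEG-NBW, 158.1, 185.1 and 271.4 CPM in VEG-IUGR, 155.2, 183.2 and 257.7 CPM in MILK-NBW, and 142.5, 174.0 and 233.3 CPM in MILK-IUGR. The differences between the 4 medians were smaller than the range of any group.

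RORA, SKOR2 and FOXP2 encode transcription factors. RORA is an orphan nuclear receptor required for the maturation and survival of Purkinje cells, SKOR2 is a co-repressor of the early Purkinje cell lineage, and FOXP2 is a forkhead factor of Purkinje cells that is also made in other neurons. RORA (chr1:110719004-111482807, which holds a pseudogene) had a lowest, median and highest level of 30.78, 46.02 and 52.86 CPM in VEG-NBW, 28.99, 38.99 and 50.68 CPM in VEG-IUGR, 36.11, 41.07 and 53.08 CPM in MILK-NBW, and 36.47, 46.10 and 59.13 CPM in MILK-IUGR. Its lowest values, 28.99 and 30.78 CPM, were those of piglets 201 and 200. Both were among the 3 highest piglets for PCP2, PCP4 and SLC1A6, and piglet 200 also for CALB1, CA8, ITPR1 and SKOR2. RORA is also transcribed in other cerebellar cells, as molecular layer interneurons use it too.

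SKOR2 (chr1:96795362-96842360) had a lowest, median and highest level of 2.945, 3.749 and 5.561 CPM in VEG-NBW, 2.472, 3.475 and 4.299 CPM in VEG-IUGR, 3.029, 3.907 and 8.268 CPM in MILK-NBW, and 2.073, 3.917 and 5.776 CPM in MILK-IUGR. It varied most of the 9 genes between piglets, with a coefficient of variation of 30.4%, and also had the fewest counts, 34 to 135 per library. FOXP2 (chr18:31335102-31890523) had a lowest, median and highest level of 8.528, 12.01 and 14.07 CPM in VEG-NBW, 9.367, 10.88 and 15.57 CPM in VEG-IUGR, 7.587, 10.88 and 12.09 CPM in MILK-NBW, and 7.987, 11.11 and 16.30 CPM in MILK-IUGR. The groups overlapped for both genes.

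**Figure D1:**
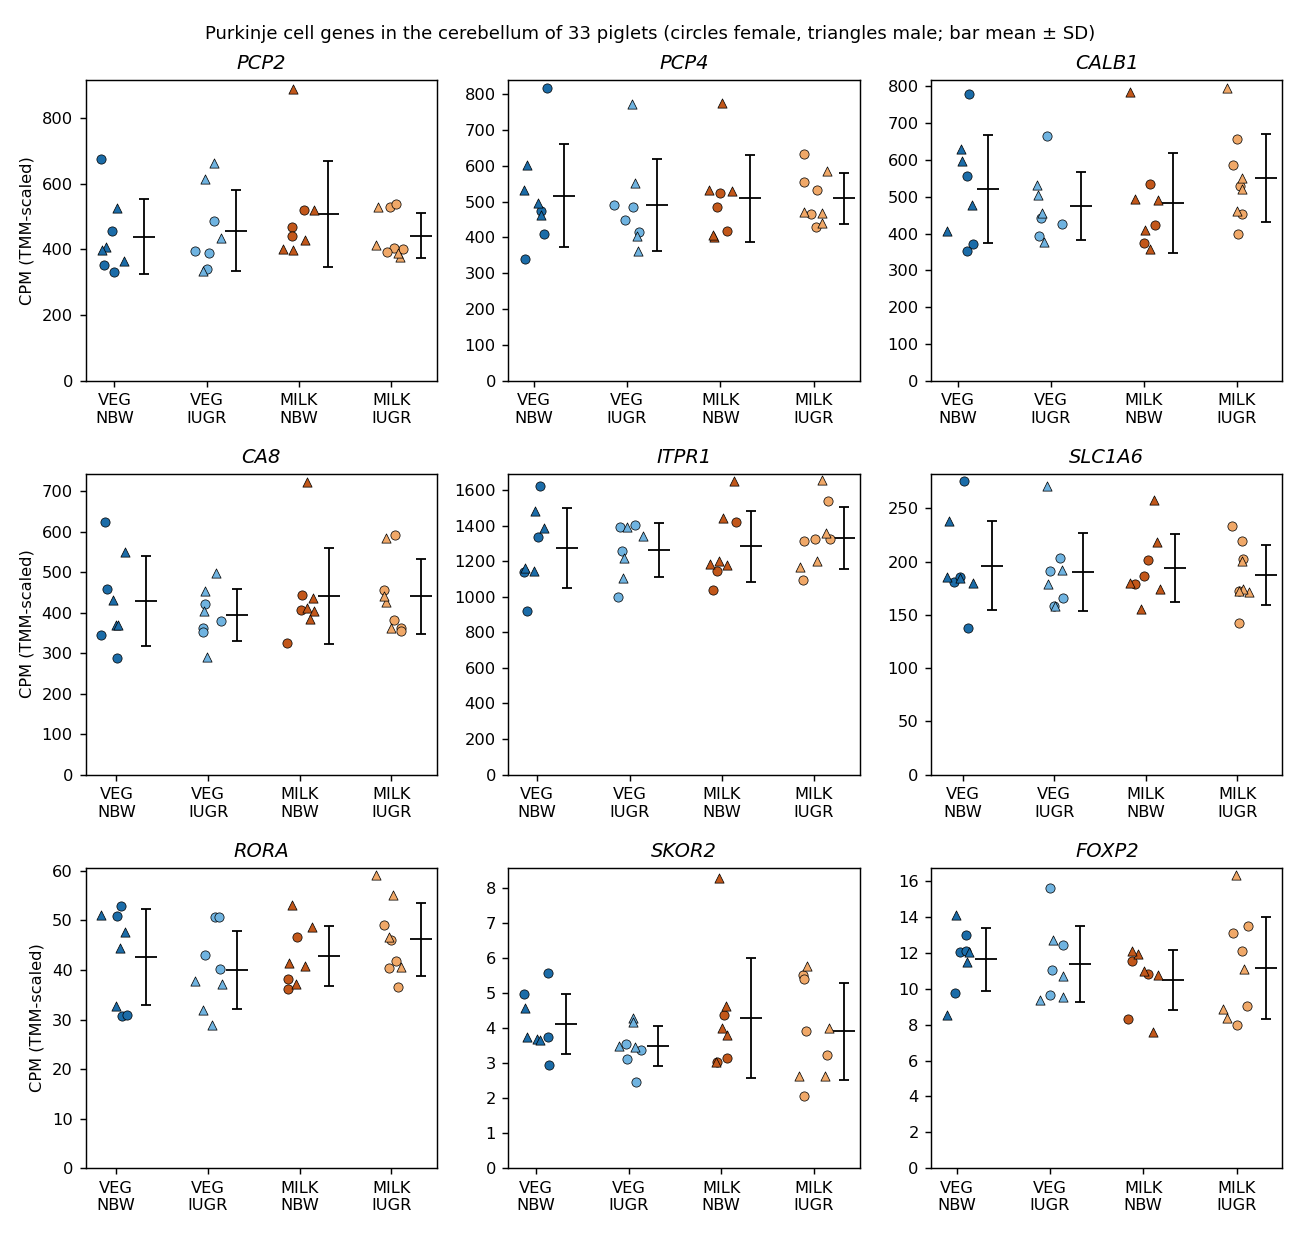
Level of each Purkinje cell gene (CPM on TMM-scaled library sizes, axes from 0) by group, with 1 point per piglet (circles female, triangles male) and the mean ± SD of each group of 8 or 9 piglets beside it. The groups overlap in all 9 panels, and the single high MILK-NBW point in PCP2, CA8 and SKOR2 is piglet 234, at 889.0, 721.3 and 8.268 CPM.

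The first question of the design was whether the fat source or the birth weight changed these levels. None of the 9 Purkinje cell genes was called as different between groups. Over the 33 libraries, 0 of 9 had a Benjamini-Hochberg adjusted p under 0.05 in edgeR's quasi-likelihood test for diet, birth weight, sex, the interaction of diet and birth weight, or any of the 4 contrasts between groups, and 0 of 9 had an unadjusted p under 0.05 in any of these 8 tests. Of all 15356 genes tested, 0% were called in 7 of the tests and 0.163% (25 genes) for sex, so 0 of 9 was near this background. Unadjusted p under 0.05 was reached over all genes by 654 for diet, 337 for birth weight, 460 for sex and 935 for the interaction. DESeq2 and limma voom also called 0 of 9 in each test.

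For diet (MILK against VEG), the 9 log2 fold changes had a median of 0.05 and ran from -0.08 for FOXP2 to 0.11 for RORA, against a median of -0.0035 over all genes tested. RORA had the smallest unadjusted p, 0.244, with a log2 fold change of 0.11 ± 0.09 (SE) and an edgeR adjusted p of 0.985. The 95% intervals of the 9 genes together reached from -0.28 to 0.39 on the log2 scale, which is 0.825 to 1.31-fold, and those of the best measured gene, ITPR1, from 0.931 to 1.14-fold.

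For birth weight (IUGR against NBW), the median log2 fold change was -0.03, with a range from -0.17 for SKOR2 to 0.04 for CALB1. SKOR2 had the smallest unadjusted p, 0.225, and an edgeR adjusted p of 1.0, and its interval reached from 0.727 to 1.08-fold. The intervals of PCP2 (0.814 to 1.12-fold), PCP4 (0.847 to 1.13-fold), CALB1 (0.873 to 1.21-fold), CA8 (0.836 to 1.11-fold) and ITPR1 (0.921 to 1.13-fold) all included 1. For sex (male against female), the log2 fold changes ran from -0.05 for FOXP2 to 0.10 for CA8, with a median of 0.06 and an edgeR adjusted p of 1.0 for all 9 genes.

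The interaction asks whether the diet difference was another in IUGR than in NBW piglets. It was measured less precisely, with 95% intervals that together reached from -0.70 to 0.79 on the log2 scale. CALB1 had the largest estimate, 0.34 ± 0.22 (SE), with an unadjusted p of 0.142 and an edgeR adjusted p of 0.803. Its 2 diet differences were -0.12 in NBW and 0.21 in IUGR piglets. Piglet 234 of MILK-NBW had the highest CALB1 of its group, and leaving it out was a step added after seeing the data. The CALB1 interaction was then 0.46 ± 0.21 (SE), with an unadjusted edgeR p of 0.0341 and an edgeR adjusted p of 0.880. Removing the highest MILK-NBW value raises this estimate by construction, so no conclusion is drawn from that p. PCP2 went the other way, with an interaction of -0.24 ± 0.23 (SE), from 0.20 in NBW and -0.04 in IUGR piglets, and an edgeR adjusted p of 0.843. Without piglet 234 this PCP2 interaction was -0.096. The other 7 estimates lay between 0.0020 for SLC1A6 and 0.20 for RORA.

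In the 4 contrasts between single groups, the smallest unadjusted p of the 9 genes was 0.225 (PCP2, log2 fold change 0.20) for MILK-NBW against VEG-NBW, 0.107 (RORA, 0.21) for MILK-IUGR against VEG-IUGR, 0.244 (SKOR2, -0.24) for VEG-IUGR against VEG-NBW and 0.208 (CALB1, 0.20) for MILK-IUGR against MILK-NBW. These contrasts share groups. Over the 33 libraries their edgeR adjusted p for the 9 genes ranged from 0.819 to 1.0. Without piglet 234 the PCP2 estimate for MILK-NBW against VEG-NBW was 0.047. The CALB1 estimate for MILK-IUGR against MILK-NBW was then 0.32, with an unadjusted edgeR p of 0.0362 and an edgeR adjusted p of 0.859. This CALB1 estimate too rises by construction when the highest MILK-NBW value is removed, so no conclusion is drawn from it.

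**Figure D2:**
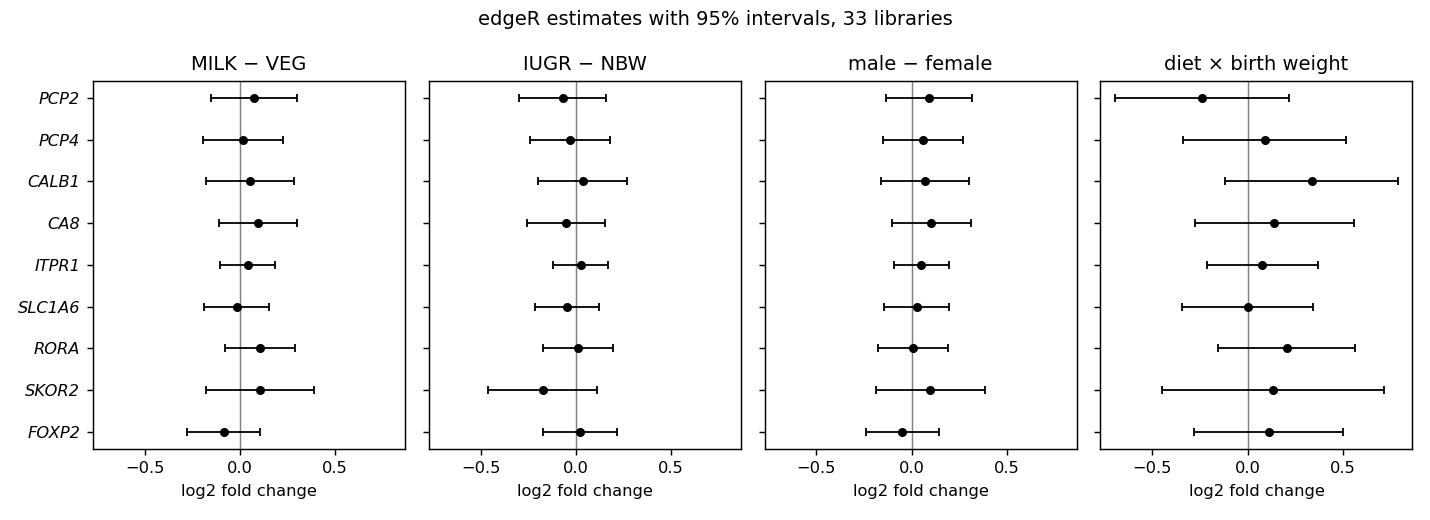
Estimates for the 9 genes from edgeR over 33 libraries, as log2 fold changes with 95% intervals, for diet, birth weight, sex and the interaction of diet and birth weight. Every interval includes 0, and those of the interaction are the widest.

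The design also allows the piglets to be compared one with another. Here the Purkinje cell genes moved strongly, and most of them together. The biological coefficient of variation that edgeR estimated in the additive model of diet, birth weight and sex was higher for each of the 9 than the median of genes of like level. It was 22.3% for PCP2 against 10.9%, 20.5% for PCP4 against 11.3%, 22.6% for CALB1 against 11.3% and 20.2% for CA8 against 10.8%. It was 16.7% for SLC1A6 against 10.3% and 17.7% for RORA against 10.6%, and closer to the other genes for ITPR1 (14.3% against 11.7%), SKOR2 (25.9% against 20.9%) and FOXP2 (18.0% against 14.8%).

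Over the 33 piglets, the 36 pairs of the 9 genes had a median Pearson's r of 0.51 on log2 CPM, against -0.0015 over all pairs of the 15356 genes tested, and r was above 0.5 in 50% of the pairs against 3.08% of all pairs. Some gene lists of other cells moved together as much or more. The median r within the list was 0.91 for oligodendrocytes, 0.72 for microglia and 0.58 for granule neurons. In the remaining lists of other cells it was 0.16 to 0.37. By a two-sided permutation test with 100000 resamples and Benjamini-Hochberg adjustment over the 36 pairs, 21 had an adjusted p under 0.05, all with r above 0, and by Spearman's rho 17 did. These 21 were exactly the pairs among the 7 genes other than RORA and FOXP2, a division seen only in the values. The tightest pairs were PCP2 with PCP4, with r = 0.84 (rho = 0.76, adjusted permutation p = 4.5e-05 for r and 0.00012 for rho), and CALB1 with CA8, with r = 0.82 (rho = 0.75, the same adjusted p). These raw p-values, 1e-05, were the smallest that the resamples can give.

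Next came ITPR1 with SLC1A6 (r = 0.77, rho = 0.74), PCP4 with SLC1A6 (r = 0.77, rho = 0.65), PCP4 with CA8 (r = 0.74, rho = 0.54) and CALB1 with ITPR1 (r = 0.73, rho = 0.68). SKOR2, the least counted gene, followed CA8 most closely (r = 0.73, rho = 0.69). The loosest of the 21 was PCP2 with ITPR1, with r = 0.38 (adjusted permutation p = 0.0487) and rho = 0.18 (adjusted permutation p = 0.368). PCP2 with CALB1 also passed by r alone, with r = 0.44 and rho = 0.28 (adjusted permutation p = 0.0194 and 0.183). PCP2 and PCP4 were thus close to each other, and so were CALB1, CA8 and ITPR1, but these were not separate sets. PCP4 with CA8 (r = 0.74) was as close as CALB1 with ITPR1 (r = 0.73) or CA8 with ITPR1 (r = 0.71). Among the 21 pairs, PCP2 was furthest from ITPR1.

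Pairs with RORA or FOXP2 had lower r over all piglets. The 15 pairs with either of them had a median r of 0.12 and a range from -0.35 to 0.33, and 0 of 15 passed by r or by rho. On residuals after group and sex, 2 of the 15 had an adjusted permutation p just under 0.05. They were ITPR1 with FOXP2 (r = 0.38, adjusted permutation p = 0.0472) and PCP2 with RORA (r = -0.38, adjusted permutation p = 0.0472). The permutation did not allow for the fitted group and sex terms, which makes these p-values too small. Whether the 2 pairs passed can therefore not be said. RORA had r = -0.35 with PCP2 (rho = -0.34, adjusted permutation p = 0.0712 and 0.0922) and r = -0.28 with PCP4. Its highest r was 0.31, with ITPR1. FOXP2 had r = 0.33 with ITPR1 (rho = 0.31, adjusted permutation p = 0.0897 and 0.127) and -0.17 with PCP2, and RORA and FOXP2 had r = 0.25 with each other.

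**Figure D3:**
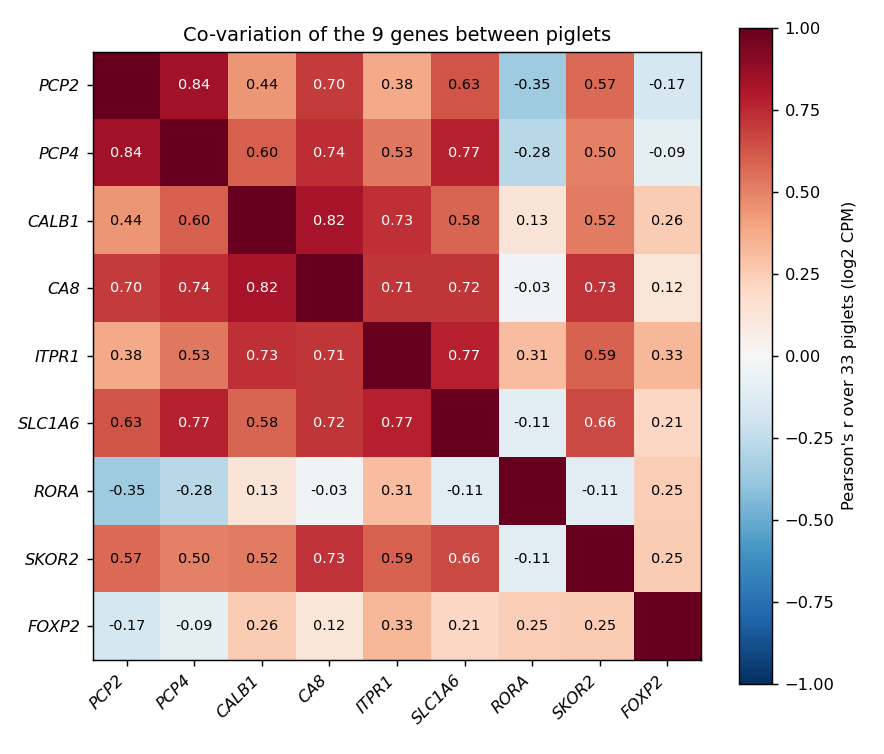
Pearson's r between the log2 CPM of each pair of Purkinje cell genes over 33 piglets, on a colour scale from -1 to 1 with the value in each cell. The 21 cells among PCP2, PCP4, CALB1, CA8, ITPR1, SLC1A6 and SKOR2 lie between 0.38 and 0.84, and those with RORA or FOXP2 between -0.35 and 0.33.

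The co-variation was also computed within groups and within sexes. On residuals after group and sex the 36 pairs had a median r of 0.51, and the 21 pairs a median of 0.66, the same as without that step. Over all 36 pairs the median r was 0.40 within females (n = 16) and 0.53 within males (n = 17). Within groups it was 0.47 in VEG-NBW, 0.19 in VEG-IUGR, 0.73 in MILK-NBW and 0.56 in MILK-IUGR. The 21 pairs, which were chosen on the same piglets, had a median r of 0.68 in females and 0.61 in males, and of 0.66, 0.53, 0.82 and 0.69 in the 4 groups. The 15 pairs with RORA or FOXP2 had a median r of -0.17 in VEG-NBW, -0.04 in VEG-IUGR, 0.24 in MILK-NBW and 0.29 in MILK-IUGR. The highest r of these within a group was 0.83, for ITPR1 with FOXP2 in MILK-IUGR.

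Without the 2 piglets farthest from the median of the first gene of a pair, the median r of the 36 pairs fell from 0.51 to 0.33. For the 21 pairs it was 0.59, with a range of 0.14 for PCP2 with ITPR1 to 0.77 for PCP2 with PCP4. The pairs of PCP2 with ITPR1, CALB1 (0.18) and SKOR2 (0.32), and of PCP4 with SKOR2 (0.28), thus rested in good part on the extreme piglets. For the 15 pairs with RORA or FOXP2 the median was 0.12, with a range from -0.32 to 0.53. ITPR1 with FOXP2 rose from 0.33 to 0.53, above the pairs just named.

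Piglet 234 (MILK-NBW, male) weighed on these values. Without it, a step added after seeing the data, 18 of the 21 pairs passed, with a median r of 0.60. The pairs lost were PCP2 with CALB1 (r = 0.31, adjusted permutation p = 0.129), PCP2 with ITPR1 (r = 0.26, adjusted permutation p = 0.205) and PCP4 with SKOR2 (r = 0.38, adjusted permutation p = 0.0549). PCP2 with RORA then passed below 0, with r = -0.41 and an adjusted permutation p of 0.0427.

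By the mean of the 9 standardised log2 levels, a score in SD units, the highest piglets were 234 (MILK-NBW, 1.80), 233 (MILK-IUGR, 1.38), 200 (VEG-NBW, 1.36) and 235 (MILK-IUGR, 1.05). Piglet 234 was among the top 5 of 33 for 7 of the 9 genes and first for PCP2, CA8 and SKOR2. Piglet 200 was also among the top 5 for 7 genes and first for PCP4 and SLC1A6, but ranked 32 for RORA. Piglet 233 was first for CALB1, ITPR1 and FOXP2 and second for RORA and SKOR2, so it was high for the transcription factors too.

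The lowest piglet was 228 (VEG-NBW, -1.28), which ranked 33 of 33 for PCP2, PCP4, CALB1, CA8, ITPR1 and SLC1A6, and yet ranked 6 for FOXP2 and 16 for SKOR2. The next lowest were 227 (VEG-IUGR, -0.87) and 207 (MILK-IUGR, -0.76). High and low piglets were thus found in different groups. The score had a lowest, median and highest value of -1.28, 0.13 and 1.36 in VEG-NBW, -0.87, -0.30 and 0.68 in VEG-IUGR, -0.72, -0.21 and 1.80 in MILK-NBW, and -0.76, -0.09 and 1.38 in MILK-IUGR, and the 4 groups overlapped.

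**Figure D4:**
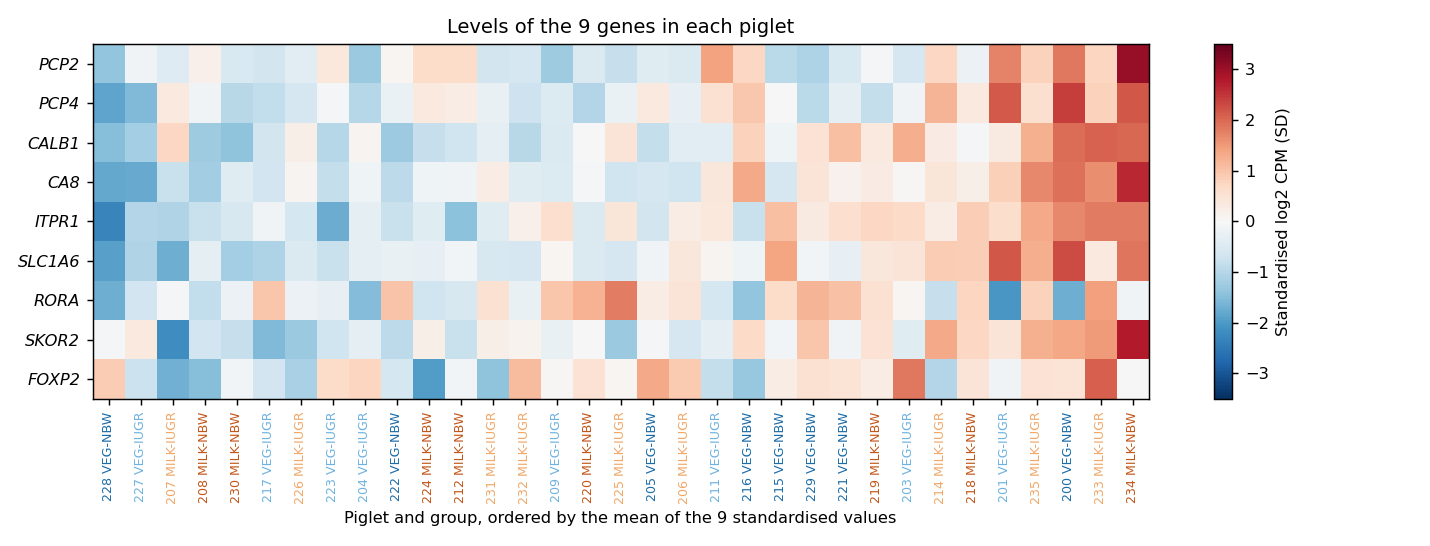
Log2 CPM of the 9 genes in 33 piglets, each gene standardised to a mean of 0 and an SD of 1 and coloured from low (blue) to high (red), with piglets ordered by the mean of the 9 values and labels coloured by group. Piglet 228 at the left (-1.28) and piglets 200, 233 and 234 at the right (1.36, 1.38 and 1.80) stand apart in most genes, and RORA is low in piglets 200 and 201.

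The levels were also set against 2 measures of the libraries. None of the 18 correlations of a Purkinje cell gene with the share of unassigned read pairs or with the total count had an adjusted permutation p under 0.05. The largest were those of PCP2 with the unassigned share, with r = -0.38 and rho = -0.30 (adjusted permutation p = 0.298 and 0.505), and of FOXP2 with the same share, with r = 0.37 and rho = 0.41 (adjusted permutation p = 0.298 and 0.333). Without the 2 farthest piglets these r were -0.16 and 0.44. The 33 libraries were those left after libraries with an outlying unassigned share were taken out. That cut the range of this share from 26.7 to 64.3% down to 26.7 to 30.5%, so these correlations say nothing about higher shares. The part of RNA integrity in the piglets' levels was not tested.

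Of all 15356 genes, 2.06% (317 genes) had r above 0.5 with the score of the 9 genes, on residuals after group and sex. Correlations with the score are a description over the same 33 libraries. The closest genes outside the list were SPOCK3 (r = 0.94, rho = 0.90), which encodes a secreted proteoglycan, ITPRID1 (r = 0.89), whose product carries a domain that interacts with inositol trisphosphate receptors, and PLXDC1 (r = 0.87), a membrane protein. PEX26 (r = 0.87), of peroxisome import, CA7 (r = 0.84), a carbonic anhydrase, and INPP5A (r = 0.84), the phosphatase that ends the inositol trisphosphate signal, followed. KCNAB1 (r = 0.83), a potassium channel subunit, RGS8 (r = 0.82), a regulator of G protein signalling, PRMT8 (r = 0.82), an arginine methyltransferase, and CD247 (r = 0.82), known as the zeta chain of the T cell receptor, completed the first 10.

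The single genes had different nearest neighbours. PCP2 was most like MRM1 (r = 0.87) and HOMER3 (r = 0.85), a postsynaptic scaffold, and PCP4 most like YWHAH (r = 0.86) and DPP3 (r = 0.81). CALB1 was most like ELMOD1 (r = 0.90), and CA8 most like NEFL (r = 0.89), the light neurofilament, and SPOCK3 (r = 0.88). ITPR1 was most like PTPRM (r = 0.83) and SPOCK3 (r = 0.83), and SLC1A6 most like MAP7D2 (r = 0.91) and PLXDC1 (r = 0.90). RORA was most like TTBK2 (r = 0.89), a kinase, and GNAQ (r = 0.88), a G protein alpha subunit that activates phospholipase C. SKOR2 was most like DGKZ (r = 0.86) and HES3 (r = 0.82), and FOXP2 most like PPIP5K2 (r = 0.79) and CHAF1B (r = 0.74). Of the nearest genes named here, SPOCK3 was shared by CA8 and ITPR1.

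The wider Purkinje cell pathway was read from 4 further lists of 42 genes past the filter, of which 0 were called in any of the 8 tests by edgeR, DESeq2 or limma voom. In the edgeR fit, unadjusted p under 0.05 was reached by 1 of the 42 for diet, 1 for birth weight, 1 for sex and 2 for the interaction. For the 4 contrasts in the order above it was reached by 0, 3, 1 and 0, against 6.7, 3.9, 2.3 and 6.2% of all genes tested. Of 14 genes of calcium and metabotropic glutamate signalling, 7 had r above 0.5 with the score, among them INPP5A (0.84), CAMK2A (0.71), a calcium-dependent kinase, HOMER3 (0.65) and ATP2A2 (0.58), a calcium pump of the endoplasmic reticulum. GNAQ (0.19), PLCB4 (0.28) and CACNA1A (0.11) were not among them, and CAMK4, which granule neurons also use, had r = -0.15. Of 14 genes of the synapse, channels and cytoskeleton, 9 had r above 0.5, among them RGS8 (0.82), KCNMA1 (0.72), a potassium channel opened by calcium, and SLC32A1 (0.69), the vesicular transporter of inhibitory transmitters. ATXN1 was at -0.35.

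Of 8 further transcription factors of the Purkinje cell lineage, none had r above 0.5, against 2.06% of all genes. The highest were LHX5 (0.42) and EBF2 (0.40), while EBF1 was at -0.54 and OLIG2, which oligodendrocytes also express, at -0.40. SKOR2 (0.77), FOXP2 (0.395) and RORA (0.095) are themselves part of the score, so their r cannot be set against these. Of 6 signals that Purkinje cells release, 1 passed, NRG1 (0.73), a growth factor, and SHH, which drives the division of granule neuron precursors, had r = 0.33 at a median of 1.65 CPM. For diet, the median log2 fold change of these lists was 0.03 for calcium and metabotropic glutamate signalling, 0.01 for synapse, channels and cytoskeleton, 0.01 for transcription factors and -0.0043 for signals. For birth weight it was -0.02, -0.03, -0.02 and -0.0098.

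Genes of the other cerebellar cells were listed to see what moved beside the Purkinje cell genes, and 0 of these 61 genes were called in any test by edgeR, DESeq2 or limma voom. Unadjusted p under 0.05 in the edgeR fit was reached by 2 of them for diet, 1 for birth weight, 3 for sex and 3 for the interaction, and in the contrasts by 5 for MILK-NBW against VEG-NBW, 2 for MILK-IUGR against VEG-IUGR, 0 for VEG-IUGR against VEG-NBW and 6 for MILK-IUGR against MILK-NBW. The last included the 3 genes of other excitatory neurons. Over all 15356 genes the shares were 4.3% for diet, 2.2% for birth weight, 3.0% for sex and 6.1% for the interaction. In the 4 contrasts, in the same order, they were 6.7, 3.9, 2.3 and 6.2%. The summed level of the 12 granule neuron genes ran from 4708 to 7822 CPM, with group medians of 6009 to 6533 CPM, and none of the 12 had r above 0.5 with the score (median r = -0.08). Granule neuron genes moved with each other, with a median r of 0.58 over their 66 pairs, and had a median r of -0.07 with the 9 Purkinje cell genes. Piglet 234, first by the Purkinje cell score, ranked 32 of 33 for the granule neuron sum (4794 CPM), 1 for interneurons and 10 for oligodendrocytes, whereas piglet 200 ranked 15, 10 and 31. Piglet 228, the lowest, ranked 13 for granule neurons, 33 for interneurons and 21 for oligodendrocytes.

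Of 8 genes of molecular layer interneurons and Golgi cells, 2 had r above 0.5 with the score, LYPD6 (0.68) and SORCS3 (0.53), and the sum of the list ran from 129.4 to 199.9 CPM. The 6 oligodendrocyte genes, led by MBP, went the other way, with r from -0.47 to -0.28 with the score, and their sum varied most in absolute terms, from 8451 to 47780 CPM. Group medians of that sum were 15200 CPM in VEG-NBW, 16730 CPM in VEG-IUGR, 20880 CPM in MILK-NBW and 19820 CPM in MILK-IUGR, with overlap between all groups. Piglet 227, second lowest by the Purkinje cell score, had the highest oligodendrocyte sum. The part of these cells, or of the depth and place of the tissue piece, in the levels of the Purkinje cell genes was not tested.

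Astrocyte and Bergmann glia genes, led by GFAP and AQP4, summed to 5774 to 12290 CPM, and 1 of 10 had r above 0.5 with the score, TNC (0.51). Microglia genes, led by CSF1R and C1QB, summed to 92.0 to 294.2 CPM, with 0 of 8 above 0.5 and a median r of -0.24. Endothelial and mural genes, led by CLDN5 and RGS5, summed to 260.9 to 428.1 CPM with 0 of 7 above 0.5. Choroid plexus and meninges genes, led by COL1A1 and COL1A2, summed to 300.7 to 2190 CPM with 0 of 7 above 0.5, and CLIC6 of the choroid plexus was at 0 in at least 1 library. Of the 3 genes of other excitatory neurons, EOMES and SLC17A6 led, and they did not share 1 direction. With the score, EOMES had r = 0.159 (rho = 0.143), SLC17A6 r = -0.573 (rho = -0.251) and LMX1A r = -0.65 (rho = -0.471).

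The 3 libraries left out held the Purkinje cell genes at levels unlike the rest, and not in 1 direction. In this comparison CPM was taken from the library's total count on genes without TMM. In piglet 210, which had 6513 genes with a count, PCP2 stood at 4944 CPM, 11.9-fold the median of the 33, from 39237 counts. SLC1A6 at 634.3 CPM (3.48-fold), FOXP2 at 37.3 CPM (3.31-fold) and PCP4 at 921.9 CPM (1.93-fold) were also above the range of the 33. In the same library ITPR1 was at 18.0 CPM (0.0138-fold, 143 counts), CALB1 at 35.2 CPM (0.0700-fold) and CA8 at 76.5 CPM (0.188-fold), all below the range, and RORA and SKOR2 had 0 counts.

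Piglets 202 and 213 departed less. In piglet 202, PCP4 (192.1 CPM), CA8 (253.5 CPM), ITPR1 (589.1 CPM), SLC1A6 (96.5 CPM) and RORA (354 counts) were below the range of the 33 and FOXP2 (28.0 CPM) was above it. In piglet 213, PCP4 (861.6 CPM) was above, and ITPR1 (675.6 CPM) and RORA (4.61 CPM) were below, with 6 genes inside. ITPR1 and RORA were below the range in all 3 libraries.

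**Figure D5:**
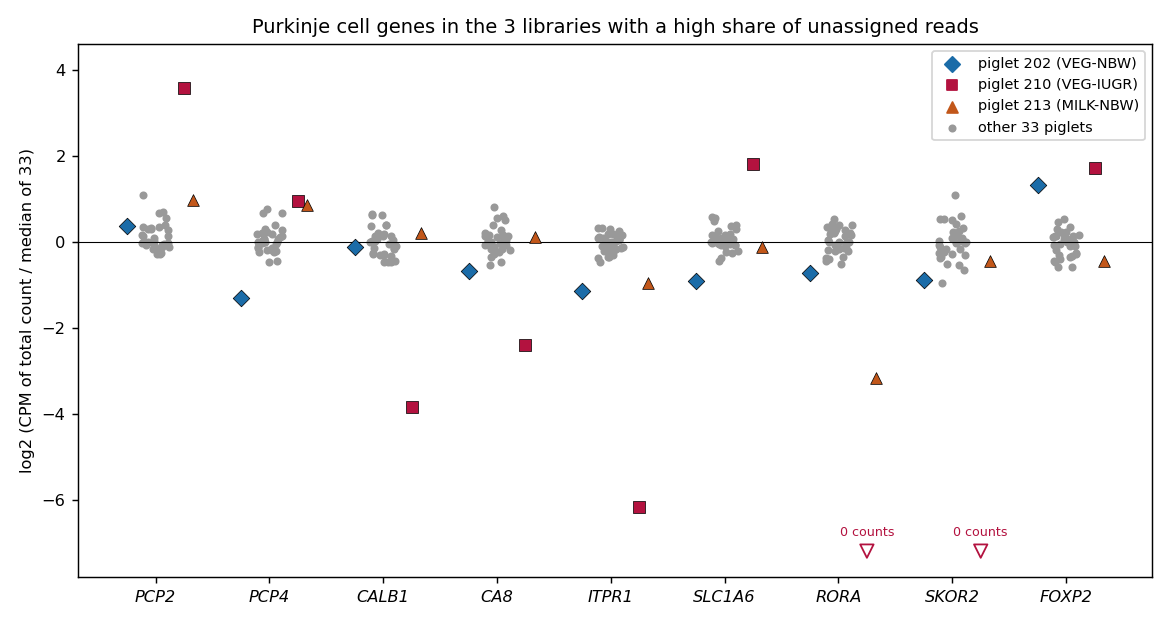
Level of each gene (CPM of the total count) in the 3 left-out libraries, as log2 of the ratio to the median of the other 33 (grey points), with open triangles at the bottom for 0 counts. PCP2 in piglet 210 is 11.9-fold the median and ITPR1 0.0138-fold, while piglets 202 and 213 lie nearer the grey points.

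With all 36 libraries, 0 of the 9 genes were called, but PCP2 moved most. Its log2 fold change became 1.0 ± 0.38 (SE) for VEG-IUGR against VEG-NBW (edgeR adjusted p = 0.397) and -1.04 ± 0.38 (SE) for MILK-IUGR against VEG-IUGR (edgeR adjusted p = 0.367), and its interaction -1.40 ± 0.52 (SE, edgeR adjusted p = 0.810). The corresponding estimates over the 33 libraries were 0.05, -0.04 and -0.24. The co-variation changed more. The median r of the 36 pairs became -0.14, with a range from -0.90 for PCP2 with RORA to 0.95 for ITPR1 with RORA, and PCP2 with ITPR1 went from 0.38 to -0.83. By rank the change was smaller, with a median rho of 0.22 over all 36 libraries against 0.38 over the 33, and with rho of -0.48, 0.52 and -0.06 for the same 3 pairs. The r of PCP2 with PCP4 (0.61) and SLC1A6 (0.75), and of PCP4 with SLC1A6 (0.74), stayed above 0.5. So did that of CALB1 with CA8 (0.93), ITPR1 (0.91) and SKOR2 (0.90), CA8 with ITPR1 (0.87) and SKOR2 (0.91), and ITPR1 with SKOR2 (0.94).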

How the data were processed

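The deposited tables, 1 per piglet, hold the read pairs counted on each Ensembl gene of the pig as raw counts, which the authors did not normalise, followed by the unassigned pairs, which were kept out of library sizes. Per the submitters' processing notes, Trim Galore, HISAT2, HTSeq and DESeq2 were used with the build Sscrofa11.1. The release of the annotation and whether counting used strand are not given in the sources used here. Gene spans are those of RefSeq on that build. Exon lengths and sequences were not used here.

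Groups and sex were taken from the labels. Each library is 1 animal. Piglets shared litters, which the labels do not give, so litter was not in the fits. Depth is given with the results. Tests on counts used edgeR 4.0.16 in R 4.3.3 (TMM, filterByExpr with a minimum count of 10, quasi-likelihood test, sex as a covariate) over all genes, at a Benjamini-Hochberg adjusted p under 0.05. Diet, birth weight and sex were tested in an additive model, and the interaction and 4 contrasts in a model of the 4 group means. Levels were correlated as log2 CPM with a prior count of 2. Only the edgeR test for diet was tried on simulated counts, with genes changed in MILK piglets. The other tests and the correlations were not tried in this way.

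Named are the 9 genes, the 10 genes with a symbol and the highest r with their score, the 2 highest with each gene, called genes of each list, and the 2 most abundant genes of each list of another cell type. The naming of further list genes followed their values, and some genes that the rule or the lists hold are not reported here. The genes, the lists and the 33 libraries were chosen with earlier results of these data known. Listed genes not matched to an identifier (RYR1, PPP1R17, NEFH, BHLHE22, S100B, HOPX, MOBP, MYRF, MAL, TMEM119, SLC2A1 and FOLR1) were not analysed here. Alternatives were all 36 libraries, leaving out piglet 207 too, DESeq2 1.42.0, its size factors in edgeR, edgeR without sex, no filter, at least 10 counts in every library, limma 3.58.1 voom with quality weights, averages over the other factor and, for correlations, residuals of group and sex and size factors. Leaving out piglet 234 was added after seeing the data. Permutation tests used Python 3.11.15 and numpy 2.4.6.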

Additional observations from a re-analysis of the deposited data

Results flagged for a closer look

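Within the groups of 8 or 9 piglets, Dixon's 95% criterion set apart 7 of 36 combinations of gene and group, where chance alone sets apart about 1 in 20. In MILK-NBW, piglet 234 was the high value for PCP2 (889.0 CPM), PCP4 (776.3 CPM), CALB1 (785.0 CPM), CA8 (721.3 CPM) and SKOR2 (8.268 CPM). In VEG-IUGR, piglet 201 was the high value for PCP4 (772.2 CPM) and SLC1A6 (271.4 CPM). The genes are correlated, so these 7 are not independent.

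In the 3 libraries left out of the fits over 33 libraries, 6 levels lay above those of all other 33 piglets. In piglet 210 these were PCP2 at 4944 CPM of the total count, PCP4 at 921.9 CPM, SLC1A6 at 634.3 CPM and FOXP2 at 37.3 CPM. PCP4 was at 861.6 CPM in piglet 213, and FOXP2 at 27.96 CPM in piglet 202. The share of unassigned read pairs in the same libraries was 64.3, 31.5 and 43.6%, and its part in these levels was not tested.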

How the results depend on the processing

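None of the 9 genes was called in any of the 8 tests under any alternative. Counts over all genes moved from 25 to 7 for sex with at least 10 counts in every library. For MILK-NBW against VEG-NBW they moved from 0 to 2 with DESeq2, and to 1 without piglet 207 or with voom. For MILK-IUGR against MILK-NBW they moved from 0 to 1 with DESeq2, its size factors, no sex term, at least 10 counts, voom or no piglet 207. In the tests of diet, birth weight, sex and interaction, some estimates of the 9 genes changed sign, all without a call. With all 36 libraries these were, for diet, PCP2 (-0.35), for birth weight, PCP2 (0.31), PCP4 (0.035), CALB1 (-0.056) and SLC1A6 (0.15), for sex, PCP2 (-0.31) and SLC1A6 (-0.078), and for the interaction, PCP4 (-0.25) and SLC1A6 (-0.40). In the 4 contrasts between groups, 9 of the 36 estimates also changed sign there, led by SLC1A6 for VEG-IUGR against VEG-NBW (0.35). With voom they were SLC1A6 for diet (0.044), PCP4 (0.031), CA8 (0.051) and SLC1A6 (0.0099) for birth weight, and PCP2 (-0.0066) and SLC1A6 (-0.025) for sex. Without piglet 234 they were PCP2 (-0.0033), PCP4 (-0.034) and CALB1 (-0.0012) for diet, PCP2 (0.010), PCP4 (0.019) and CA8 (0.0070) for birth weight, and SLC1A6 (-0.0019) for sex. Without piglet 207 they were SLC1A6 for diet (0.0026) and RORA for sex (-0.0013), and without a sex term SLC1A6 for the interaction (-0.0042).

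With all 36 libraries the median r of the 36 pairs moved from 0.51 to -0.14, 15 pairs passed below 0 in place of 0, and 14 above 0 in place of 21. The r of 19 pairs changed sign, and rho did in 3 of these. They were PCP2 with CALB1 (-0.66), CA8 (-0.51), ITPR1 (-0.83), SKOR2 (-0.70) and FOXP2 (0.50), PCP4 with CALB1 (-0.12), ITPR1 (-0.25) and SKOR2 (-0.15), CALB1 with SLC1A6 (-0.51) and FOXP2 (-0.49), CA8 with SLC1A6 (-0.30), RORA (0.73) and FOXP2 (-0.56), ITPR1 with SLC1A6 (-0.57) and FOXP2 (-0.62), SLC1A6 with SKOR2 (-0.47), RORA with SKOR2 (0.86) and FOXP2 (-0.53), and SKOR2 with FOXP2 (-0.56). On residuals of group and sex, 22 pairs passed above 0 and 1 below 0, PCP2 with RORA. Without piglet 234, 1 pair passed below 0 and the median r was 0.39. The cause of these changes was not tested.

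No paired analysis was possible because no piglet number is shared across groups. The groups of 8 or 9 piglets limited the tests, depth limited SKOR2 and FOXP2, and litter, RNA integrity and the place of the tissue piece were not in the fits.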
